A study of Mus musculus with 22 samples.

Results

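The mRNA examined here was recovered with ribosomes that carried an HA tag directed at astrocytes. It was examined for 5 chemokine ligands (Ccl2, Ccl3, Ccl4, Cxcl10 and Cxcl12) and 5 genes of the NF-kappaB pathway (Nfkb1, Nfkb2, Rela, Relb and Nfkbia). These are 10 of the 29367 genes in the count table, taken by gene symbol, and each symbol matched 1 gene. The tissue came from the optic nerve head (ONH), where axons leave the eye, or from the optic nerve proper (ONP), the myelinated nerve behind it. All mice were 3 to 4 months old, were labelled WT and were homozygous for the ribotag allele (Rpl22 HA/HA, strain B6J.129(Cg)-Rpl22tm1.1Psam/SjJ). They also carried the GFAP-Cre transgene of line 73.12Mvs, whose mouse GFAP promoter drives Cre constitutively, so that HA-tagged ribosomes are made in cells that use or once used this promoter. One eye of each mouse had received microbeads to raise intraocular pressure, and tissue was taken 7 or 30 days later. Each library came from 4 mice, with 2 of each sex in a pool. The 4 groups were ONH at 7 days (4 libraries), ONH at 30 days (7 libraries), ONP at 7 days (4 libraries) and ONP at 30 days (7 libraries). Both regions were taken from the same mice. Libraries of both regions with the same number at 30 days were assumed to be a pair from the same mice, which is not stated by number. The 7 day libraries could be assigned to their region and day only. Uninjected mice were not analysed here, so no value is a change from an uninjured nerve.

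NF-kappaB transcription factors are dimers of Rel-family proteins, among them the products of Rela, Relb, Nfkb1 and Nfkb2. Inhibitor proteins such as IkappaB-alpha, the product of Nfkbia, hold them in the cytoplasm until signals from cytokine or Toll-like receptors lead to destruction of the inhibitor. The freed dimers then transcribe inflammatory genes and Nfkbia itself, which is why its mRNA is often used as a readout of the pathway. Chemokines are small secreted proteins that attract leukocytes through G protein-coupled receptors, and in injured nervous tissue they are made by astrocytes, by microglia and by cells of vessels and meninges.

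Levels are given as CPM, counts scaled to a common library total, after TMM normalization over the 22 libraries, which held 16292489 to 33307092 counts. All 10 astrocyte markers exceeded 3 counts in every library, and Gfap ranged from 8429.6 to 23281 CPM. Markers of other cell types were also present, and among these the oligodendrocyte markers had the highest sums. The 10 oligodendrocyte markers summed to 19298.5 to 36831.5 CPM in the ONH at 7 days and 13870.3 to 41190.3 CPM at 30 days. In the ONP they summed to 82576 to 110811 CPM and 26364 to 86196 CPM. In the same order the 10 astrocyte markers summed to 14644.6 to 28274.9, 16901.5 to 27522.1, 16496.1 to 22382.1 and 16008.3 to 34045.7 CPM. At least 15 of 16 microglia and macrophage markers exceeded 3 counts in every library, and their summed level ranged from 408 to 4470.4 CPM in the ONH at 7 days, from 388 to 8563 in the ONH at 30 days, from 2819 to 4949 in the ONP at 7 days and from 476 to 9714 in the ONP at 30 days. The top values at 30 days were those of replicate 7 in both regions. These libraries stood apart for Ccl3 and Ccl4 too, so the fitted differences and mean levels of these transcripts are given with and without them. So are their correlations with each other, with Ccl2 and with the main cell markers. The genes most like each member were sought with all libraries only. The ONH library of replicate 7 also held 89.5 CPM of Gh and 86.2 CPM of Prl, hormones of the pituitary that were looked up after its values were seen, against at most 3.61 and 8.79 CPM in any other library. The part of this in its chemokine values was not tested. Of 14 monocyte, neutrophil and lymphocyte markers between 2 and 11 exceeded 3 counts, and the markers differed widely. S100a8 and Chil3 were at 0 in 19 and 20 of the 22 libraries, Plac8 and Cd3e in 2 each, and Ptprc and Nkg7 in 0. In such bulk libraries, fewer cells of a type and less RNA per cell cannot be told apart. No library pair was identical. By the methods of the study each library of a region was a separate pool of mice. Both regions were taken from the same mice, and the main fits did not pair them. Their p-values measure the spread between libraries, which are not all independent.

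Divided by the length of the exons, which allows levels of different genes to be compared, Nfkbia led with a mean of 90.6 CPM per kb over the 22 libraries. Cxcl10 followed at 50.1 and Rela at 37.2 CPM per kb. Relb (8.46), Cxcl12 (5.51), Ccl4 (4.92), Ccl2 (3.38), Ccl3 (2.61), Nfkb2 (2.29) and Nfkb1 (2.18) were lower. Without the 2 replicate 7 libraries at 30 days Ccl4 was at 2.14 and Ccl3 at 0.972 CPM per kb, both below Nfkb2 (2.19) and Nfkb1 (2.15). The length is the union over all annotated transcripts of a gene, so the per kb level of a gene with long alternative exons, such as Nfkb1 with 12.1 kb, is a low estimate. The transcripts also differed in how much they varied. Over all libraries the coefficient of variation in CPM was 19.1% for Relb, 22.4% for Nfkb1 and 23.3% for Rela, but 78.9% for Cxcl10, 80.5% for Cxcl12, 191% for Ccl4 and 209.6% for Ccl3. For Ccl4 and Ccl3 it was 129% and 147% without replicate 7. Ccl3 was at 3 counts or fewer in 5 libraries and Ccl4 in 4 libraries.

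**Figure D1:**
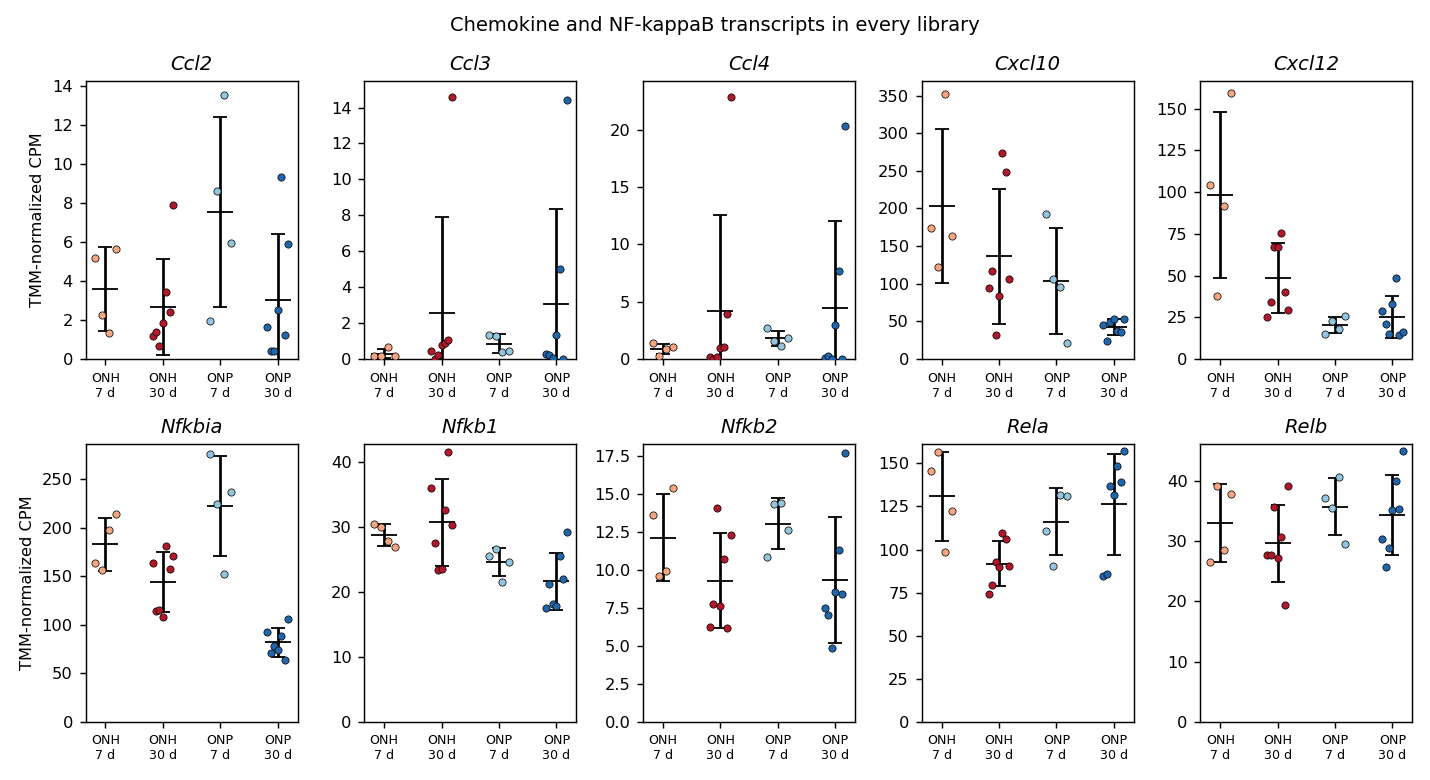
Level of each of the 10 transcripts (y axis, TMM-normalized CPM, linear from 0) in the 22 libraries by region and day (x axis). Points are libraries, and the bar and whiskers are the group mean and SD. Nfkbia in the ONP at 30 days lies between 63.3 and 106 CPM, below every ONP library at 7 days, and single libraries at 14.6 and 14.4 CPM carry the 30 day means of Ccl3.

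The groups were compared in 5 ways with edgeR's quasi-likelihood test, and a gene was called at an adjusted p under 0.05 over all genes tested. Between 7 and 30 days in the ONH, no member was called, and no gene was called in the whole table (0%, of 15668 genes tested). At an unadjusted p under 0.05 there were 3 members (Ccl3, Cxcl12 and Rela) among 2179 genes, and DESeq2 called 446 genes but no member. None of the 10 members had groups that did not overlap, against 2.25% of genes. Between 7 and 30 days in the ONP, 2 of 10 members were called, both lower at 30 days (Nfkbia and Cxcl10), where 17% of all genes were called in either direction. The groups of 1 member, Nfkbia, did not overlap, against 12.1% of genes. At 30 days 5 of 10 members were called between the regions, where 41.8% of all genes were. Cxcl10, Cxcl12, Nfkb1 and Nfkbia were higher in the ONH and Rela was higher in the ONP. Again only Nfkbia had groups without overlap, against 16.5% of genes. At 7 days 1 of 9 members tested was called between the regions, Cxcl12, which was higher in the ONH, where 13.2% of all genes were called. Cxcl12 and Nfkb1 had groups without overlap, against 21.7% of genes. The change from 7 to 30 days differed between the regions for 1 of 10 members, Nfkbia, where 0.543% of all genes were called. The shares called among the members were near those of all genes in the ONP over time and between the regions at both days.

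The median log2FC of the members was -0.36 for the ONH over time, -0.16 for the ONP over time, 0.0040 between the regions at 30 days and -0.083 between them at 7 days. The medians of all genes tested were -0.019, -0.0081, -0.0050 and 0.068. Scaling by library size alone raised the median of all genes by 0.11 in the ONP over time, by 0.11 between the regions at 7 days and by 0.15 in the difference of the 2 time changes. The share of calls in the higher direction then went from 45.9% to 66.7%, from 48.2% to 62.4% and from 27.5% to 53.6% in these 3 comparisons. The log2FC of the members below are relative to the TMM scaling.

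**Figure D2:**
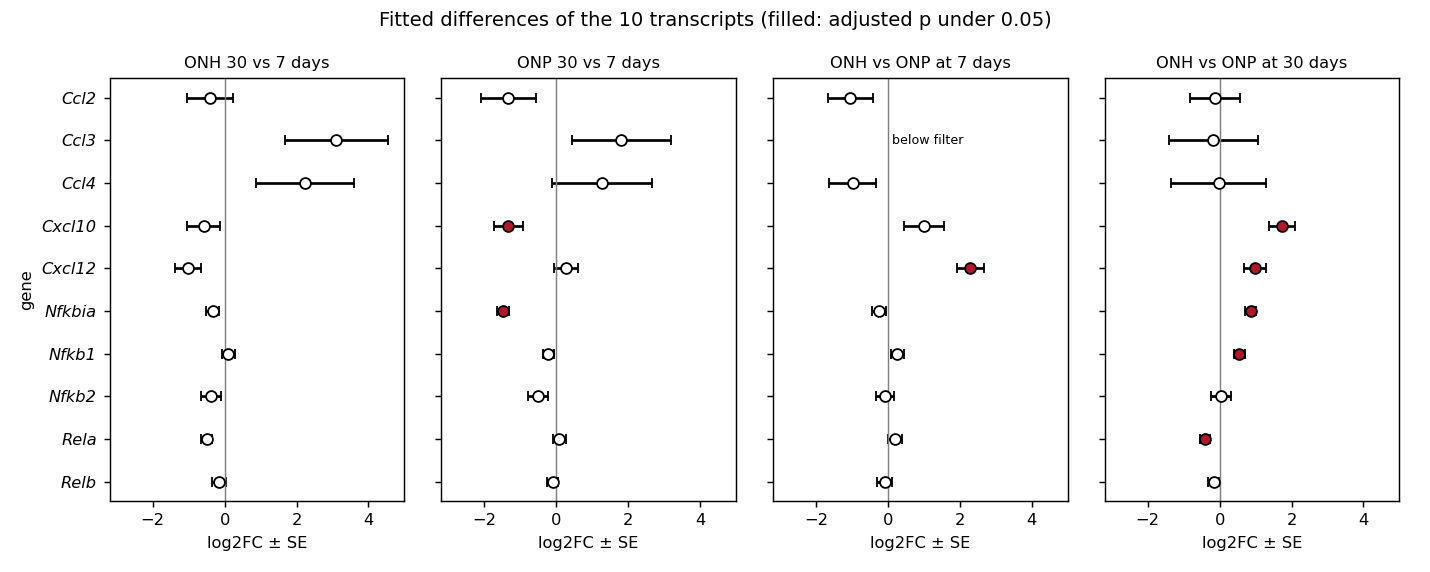
Fitted log2FC with its SE (x axis) of the 10 transcripts (y axis) in the 4 pairwise comparisons, positive where the group named first is higher. Filled points have an adjusted p under 0.05. There are none in the ONH over time, and 5 between the regions at 30 days.

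Nfkbia (ENSMUSG00000021025, chr12:55489410-55492647, minus strand, GRCm38) was called in 3 comparisons, more than any other of the 10 transcripts. In the ONP its mRNA stood at 152, 225, 237 and 276 CPM in the 4 libraries at 7 days. At 30 days the ONP libraries ranged from 63.3 to 106 CPM with a median of 78.3. Every 30 day library was thus below every 7 day library, and the means were 223 ± 51.8 (SD, n = 4) and 82.0 ± 14.7 (SD, n = 7) CPM. The fall was 2.79-fold (log2FC -1.48 ± 0.16 SE, adjusted p = 0.000435). It remained called with each library left out in turn, with a log2FC between -1.62 and -1.32. In the ONH the values were 156, 164, 197 and 215 CPM at 7 days, and at 30 days they ranged from 108 to 182 CPM with a median of 158. The ONH groups overlapped, and the difference was not called (log2FC -0.34 ± 0.18 SE, adjusted p = 0.411).

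The difference between the 2 regions in this change was -1.14 ± 0.26 SE on the log2 scale (ONP minus ONH, adjusted p = 0.0409). This call was close to the threshold. It was lost with RLE size factors (adjusted p = 0.0566), with library size only (0.0809), without a filter on low counts (0.0614), with replicate 7 of both regions left out (0.0503) and in 15 of 22 fits that left out a single library, in which the adjusted p ranged from 0.0248 to 0.129. The log2 difference in those fits ranged from -1.26 to -0.96. With the 30 day pairs as blocks the adjusted p was 0.0357.

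Between the regions, the order of the Nfkbia levels was ONP at 7 days, ONH at 7 days, ONH at 30 days and ONP at 30 days. The first 2 of these did not differ beyond their spread (log2FC ONH vs ONP -0.25 ± 0.20 SE, adjusted p = 0.439), nor did the 2 ONH groups. At 30 days all 7 ONH libraries lay above all 7 ONP libraries, by 1.82-fold (log2FC 0.86 ± 0.15 SE, adjusted p = 0.000276). Since the groups did not overlap, the ONH value was the higher one however the libraries were paired. In the 7 pairs of the same number it was higher by 0.54 to 1.32 on the log2 scale. Among markers of other cells, 8 of 10 oligodendrocyte markers and 8 of 11 endothelial markers tested were also called lower in the ONP at 30 than at 7 days. There 17% of all genes were called in either direction. The summed oligodendrocyte markers ranged there from 82576 to 110811 CPM at 7 days and from 26364 to 86196 CPM at 30 days, and the summed endothelial markers from 188 to 262 and from 18.0 to 149 CPM. In the ONH at 30 days, where Nfkbia was higher than in the ONP, the oligodendrocyte sum was lower (13870.3 to 41190.3 CPM, 8 of 10 markers called) and 2 of 11 endothelial markers were called higher. Between the regions at 30 days 41.8% of all genes were called. With group means removed, the correlation (r) of Nfkbia over the 22 libraries was 0.266 with the summed oligodendrocyte and 0.261 with the endothelial markers. It was 0.518 with the microglia and macrophage, 0.502 with the monocyte, neutrophil and lymphocyte, and -0.456 with the astrocyte markers. In the same order the r was 0.16, 0.249, 0.369, 0.328 and -0.409 without replicate 7. Other lists lay between -0.0189 and 0.296 over the 22 libraries. The part of any of these markers in the Nfkbia values was not tested.

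The sequence before the Nfkbia start is shown because the kappaB consensus, the site that NF-kappaB dimers bind, was searched in it. Windows of 250 bases before the start came from RefSeq (GRCm38.p6) and were present for 6 of the 10 members. The 10 base consensus was searched on both strands, and overlapping matches were counted once per window. It was found in 2382 of 32851 windows of all genes (7.25%) and in 5 of 8 windows of the members. Counted by gene, these were 2225 of 27025 genes (8.23%) and 3 of 6 members (Nfkbia, Cxcl10 and Nfkb2, which has 3 windows). No match was found in the windows of Ccl3, Cxcl12 and Rela, which says only that these letters are not in those 250 bases. Capitals mark the match, read 5′ to 3′ along the strand of the gene, which for Nfkbia lies at chr12:55492648-55492897 on the minus strand and ends 19 bases before the window closes at the start.
Nfkbia: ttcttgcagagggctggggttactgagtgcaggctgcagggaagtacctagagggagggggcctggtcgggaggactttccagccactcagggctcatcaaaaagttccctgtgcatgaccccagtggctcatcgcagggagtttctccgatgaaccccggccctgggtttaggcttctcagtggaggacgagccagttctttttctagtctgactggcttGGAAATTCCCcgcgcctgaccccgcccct

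Among the subunits, Nfkb1 and Rela were called and went opposite ways between the regions at 30 days. Rela encodes the subunit with the main transactivation domain, and Nfkb1 a precursor that is processed to its usual partner. Nfkb1 (ENSMUSG00000028163, chr3:135584655-135691547) ranged from 23.3 to 41.5 CPM (median 30.3) in the ONH and from 17.4 to 29.2 CPM (median 21.2) in the ONP at 30 days. The ranges overlapped, but the ONH was the higher one in 7 of 7 pairs of the same number, and the difference was 1.46-fold (log2FC 0.55 ± 0.15 SE, adjusted p = 0.00989). At 7 days the values were 26.9, 27.8, 30.0 and 30.4 CPM in the ONH and 21.5, 24.5, 25.4 and 26.6 CPM in the ONP. All ONH values were above all ONP values by a small step, which was not called (log2FC 0.26 ± 0.18 SE, adjusted p = 0.370). Over time Nfkb1 was not called in either region, with log2FC of 0.10 ± 0.18 SE in the ONH and -0.22 ± 0.15 SE in the ONP (adjusted p = 0.833 and 0.335).

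Rela (ENSMUSG00000024927, chr19:5637483-5648130) ranged from 74.4 to 110 CPM (median 90.6) in the ONH and from 84.6 to 157 CPM (median 137) in the ONP at 30 days. The ONP held the higher value in 7 of 7 pairs, although the ranges overlapped. The fitted difference, ONH vs ONP, was -0.41 ± 0.14 SE (adjusted p = 0.0301). It was not called in 7 of 14 fits that left out a single library (adjusted p up to 0.0634) nor with replicate 7 of both regions left out (adjusted p = 0.0829). With the pairs as blocks the adjusted p was 0.00619. At 7 days Rela stood at 98.5, 123, 146 and 157 CPM in the ONH and at 90.7, 111, 131 and 132 CPM in the ONP, and the regions were not told apart (log2FC 0.20 ± 0.19 SE, adjusted p = 0.519). From 7 to 30 days the ONH values went from a mean of 131 ± 25.8 (SD, n = 4) to 91.8 ± 12.8 (SD, n = 7) CPM. That difference had an unadjusted p of 0.00615 but an adjusted p of 0.215, and was not called.

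**Figure D3:**
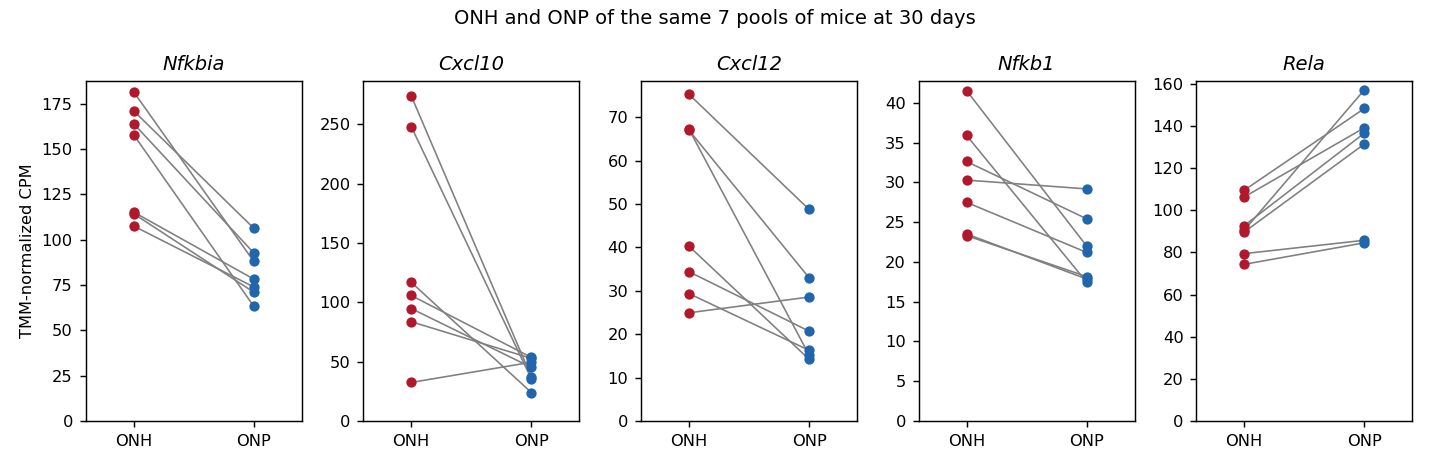
Levels of 5 transcripts (y axis, TMM-normalized CPM, linear from 0) in the ONH and ONP libraries at 30 days (x axis), with lines joining the 7 pairs of the same number. Nfkbia and Nfkb1 are higher in the ONH in 7 of 7 pairs, Cxcl10 and Cxcl12 in 6 of 7, and Rela is lower in the ONH in 7 of 7. For Nfkbia this follows from groups that do not overlap.

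Nfkb2 and Relb, the subunits of the non-canonical branch of the pathway, were not called in any comparison. Nfkb2 (ENSMUSG00000025225, chr19:46304320-46312385) ranged from 4.85 to 17.7 CPM and Relb (ENSMUSG00000002983, chr7:19606217-19629438) from 19.4 to 44.9 CPM over all libraries. For Relb the approximate 95% intervals of the log2FC were -0.53 to 0.24 (ONH over time), -0.39 to 0.20 (ONP over time), -0.47 to 0.14 (regions at 30 days) and -0.48 to 0.30 (regions at 7 days). For Nfkb2 the fitted difference in the ONP over time was -0.52 ± 0.28 SE (adjusted p = 0.221). It was called without ONP replicate 7 at 30 days, the highest Nfkb2 library (log2FC -0.74, adjusted p = 0.0377). The first of its windows is shown for comparison with that of Nfkbia, since its kappaB matches also lie near the 3′ end. It lies at chr19:46304487-46304736 on the plus strand. RefSeq gives Nfkb2 2 further starts, and their windows held 1 match each.
Nfkb2: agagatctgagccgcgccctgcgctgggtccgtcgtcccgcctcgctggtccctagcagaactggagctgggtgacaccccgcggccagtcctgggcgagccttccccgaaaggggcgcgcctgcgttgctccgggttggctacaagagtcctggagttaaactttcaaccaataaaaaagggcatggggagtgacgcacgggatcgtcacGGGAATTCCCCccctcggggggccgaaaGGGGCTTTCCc

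Cxcl10 was the most abundant of the chemokine transcripts and was higher in the ONH than in the ONP at 30 days. It encodes a ligand of Cxcr3 that is induced by interferon and NF-kappaB and attracts T cells. The gene (ENSMUSG00000034855) lies at chr5:92346638-92348889 on the minus strand. At 30 days the ONH ranged from 32.4 to 274 CPM (median 106) and the ONP from 23.9 to 53.5 CPM (median 45.1). The ONH varied more, and its lowest library fell within the ONP range, while 6 of 7 pairs were higher in the ONH. The fitted difference was 3.31-fold (log2FC 1.73 ± 0.36 SE, adjusted p = 0.00137) and was called with every library left out in turn. At 7 days the 4 ONH libraries held 123, 163, 174 and 353 CPM and the 4 ONP libraries 20.9, 95.5, 106 and 193 CPM. These overlapped and were not called as different (log2FC 1.003 ± 0.55 SE, adjusted p = 0.255).

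From 7 to 30 days Cxcl10 fell in the ONP from a mean of 104 ± 70.3 (SD, n = 4) to 42.5 ± 10.9 (SD, n = 7) CPM, although ONP library 6 at 7 days held 20.9 CPM, less than any library at 30 days. The fall was 2.52-fold (log2FC -1.33 ± 0.41 SE, adjusted p = 0.0414). The call was lost in 9 of 11 fits that left out a single library, with a log2FC as small as -0.81 (adjusted p = 0.187) without ONP library 1 at 7 days, and also with library size only (adjusted p = 0.0549) or with all 4 groups in a single fit (adjusted p = 0.0933). In the ONH the difference was -0.58 ± 0.47 SE (adjusted p = 0.590). The 2 time changes were not shown to differ (-0.75 ± 0.68 SE, adjusted p = 0.717). The window before the Cxcl10 start is shown because it held 2 separate stretches with kappaB matches. It lies at chr5:92348890-92349139 on the minus strand.
Cxcl10: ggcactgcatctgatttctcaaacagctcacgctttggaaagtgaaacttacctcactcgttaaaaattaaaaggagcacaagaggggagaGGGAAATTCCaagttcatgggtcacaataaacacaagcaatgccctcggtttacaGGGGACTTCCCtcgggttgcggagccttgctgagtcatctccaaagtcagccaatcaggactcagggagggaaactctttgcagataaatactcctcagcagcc

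Other interferon-induced genes were compared with the same fits. Of 18 such genes tested between the regions at 30 days, 9 were called higher and 1 lower in the ONH, with a median log2FC of 0.87 against -0.0050 for all genes. Isg15, a ubiquitin-like protein, was at 33.5 CPM in the ONH and 8.32 CPM in the ONP (log2FC 2.05 ± 0.38 SE, adjusted p = 0.000521). Ifi44 (log2FC 2.10), Bst2 (1.35), Rsad2 (1.16), Gbp3 (0.90), Usp18 (0.88) and Oasl2 (0.80) were called in the same direction, and Stat2, named for its direction after its value was seen, was lower (-0.65). At 7 days 4 of 18 were called higher in the ONH (Ifi44, Isg15, Bst2 and Gbp3) and none lower. Over time 1 of 18 was called lower and none higher in the ONP, where 18 of 18 had a negative log2FC (median -0.66). In the ONH, where no gene of the table was called, 18 of 19 had a negative log2FC (median -0.79) and none was called. For all genes the share called was 41.8% between the regions at 30 days, 13.2% at 7 days and 17% in the ONP over time. Cxcr3, the receptor of Cxcl10, had group medians of 0, 0.366, 0 and 0.0864 CPM (ONH at 7 and 30 days, then ONP at 7 and 30 days), and was below the filter on low counts in 3 of the 4 pairwise comparisons.

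Cxcl12 was higher in the ONH at both days. It encodes a chemokine made by stromal, vascular and meningeal cells as well as by glia, and it signals through Cxcr4. The gene (ENSMUSG00000061353) lies at chr6:117168535-117181367 on the plus strand. At 7 days the ONH libraries held 38.0, 91.4, 104 and 159 CPM and the ONP libraries 15.2, 17.9, 23.0 and 25.9 CPM. The groups did not overlap, and the difference was 4.87-fold (log2FC 2.28 ± 0.37 SE, adjusted p = 0.00291). At 30 days the ONH ranged from 24.9 to 75.3 CPM (median 40.3) and the ONP from 14.2 to 48.8 CPM (median 20.7). The ranges overlapped, 6 of 7 pairs were higher in the ONH, and the difference was 1.97-fold (log2FC 0.98 ± 0.32 SE, adjusted p = 0.0206). Both calls held with every library left out in turn, with log2FC of 1.95 to 2.54 at 7 days and 0.84 to 1.21 at 30 days.

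In the ONH the mean of Cxcl12 was 98.2 ± 49.8 (SD, n = 4) CPM at 7 days and 48.4 ± 20.8 (SD, n = 7) CPM at 30 days, a difference with an unadjusted p of 0.0158 and an adjusted p of 0.264. In the ONP the means were 20.5 ± 4.83 and 25.3 ± 12.6 CPM (log2FC 0.27 ± 0.33 SE, adjusted p = 0.606). The 2 time changes were not shown to differ after adjustment (1.29 ± 0.53 SE, unadjusted p = 0.0231, adjusted p = 0.308). Markers of several other cell types moved with Cxcl12. With group means removed, Cxcl12 and the summed endothelial markers had an r of 0.818 over the 22 libraries, and the r was 0.751 for neuron and axon markers, 0.739 for fibroblast markers, 0.555 for mural cell markers and 0.404 for microglia and macrophage markers. The last of these was 0.794 without replicate 7. The summed fibroblast markers ranged from 1186 to 3136 CPM in the ONH and from 429 to 1139.6 CPM in the ONP at 7 days, and from 787 to 1506 and from 238 to 908 CPM at 30 days. All 10 fibroblast markers exceeded 3 counts in every library, and 9 to 12 of 12 endothelial markers did. Their part in the Cxcl12 values was not tested.

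Both receptors of Cxcl12 were measured. Cxcr4 was low, at 2.05 ± 1.07 CPM in the ONH and 0.873 ± 0.370 CPM in the ONP at 30 days (SD, n = 7 each), and was called higher in the ONH (log2FC 1.26 ± 0.40 SE, adjusted p = 0.0188). At 7 days the Cxcr4 means were 2.48 and 1.34 CPM, and the difference was not called (adjusted p = 0.353). Ackr3, a scavenging receptor that removes Cxcl12, ranged from 8.01 to 52.2 CPM over the libraries and was not called in any comparison.

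Ccl2, Ccl3 and Ccl4 were not called in any comparison, and the 30 day means of Ccl3 and Ccl4 were set by a few libraries. Ccl2 attracts monocytes through Ccr2, and Ccl3 and Ccl4 act on Ccr1, among others, and are typical products of activated microglia and macrophages. Ccl3 (ENSMUSG00000000982, chr11:83647844-83649355, minus strand) and Ccl4 (ENSMUSG00000018930, chr11:83662584-83664683, plus strand) are neighbours. At 30 days Ccl3 had a median of 0.785 CPM in the ONH and 0.265 CPM in the ONP, but replicate 7 held 14.6 CPM in the ONH (275 counts) and 14.4 CPM in the ONP (355 counts). Ccl4 was at 22.9 and 20.3 CPM in the same libraries, beside medians of 0.995 and 0.303 CPM. Both libraries of that number were thus high for both transcripts. The next highest ONP library at 30 days was replicate 5, with 5.002 CPM of Ccl3 and 7.68 CPM of Ccl4. At 7 days Ccl3 was at 0.164, 0.172, 0.182 and 0.657 CPM in the ONH and at 0.373, 0.422, 1.28 and 1.34 CPM in the ONP, and 2 of these ONH values were 3 counts. In the same order of groups Ccl4 held 0.304, 0.876, 1.03 and 1.36 CPM, then 1.12, 1.60, 1.80 and 2.69 CPM.

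With so few counts the fitted differences were wide. Ccl3 in the ONH went from a mean of 0.294 ± 0.242 (SD, n = 4) CPM at 7 days to 2.57 ± 5.32 (SD, n = 7) CPM at 30 days (log2FC 3.11 ± 1.44 SE, unadjusted p = 0.0487, adjusted p = 0.357). Without ONH replicate 7 that log2FC was 0.94, and for Ccl4 it was 0.27 in place of 2.24 ± 1.37 SE. In the ONP over time, leaving out replicate 7 took the log2FC of Ccl3 from 1.80 ± 1.38 SE to 0.41 and that of Ccl4 from 1.27 ± 1.38 SE to 0.012. Between the regions at 30 days, the log2FC of Ccl3 was -0.17 ± 1.24 SE with all libraries, -2.38 without ONH replicate 7 and 1.22 without ONP replicate 7. For Ccl4 these values were -0.03 ± 1.32 SE, -2.03 and 1.24. With replicate 7 of both regions left out, Ccl3 and Ccl4 fell below the filter on low counts. At 7 days Ccl3 was below that filter, and an exact two-sided permutation test of its log2 CPM gave a difference of -1.27 (ONH minus ONP, p = 0.0857). The smallest p that this design allows is 0.0286.

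Ccl2 (ENSMUSG00000035385, chr11:82035571-82037453) was detected in every library, at 7 to 328 counts. In the ONP it stood at 1.956, 5.95, 8.63 and 13.6 CPM at 7 days and ranged from 0.389 to 9.36 CPM (median 1.64) at 30 days. The upper values at 30 days were those of replicates 5 and 7, at 9.36 and 5.89 CPM. The groups overlapped, and the difference was not called (log2FC -1.33 ± 0.77 SE, adjusted p = 0.251). In the ONH the 7 day values were 1.31, 2.25, 5.19 and 5.67 CPM, and the 30 day values ranged from 0.653 to 7.91 CPM (median 1.83), the highest again in replicate 7. The approximate 95% interval of the log2FC in the ONH was -1.65 to 0.84. Between the regions at 30 days the sign of the Ccl2 difference depended on the fit, at -0.13 ± 0.69 SE without and 0.21 with the pairs as blocks (adjusted p = 0.896 and 0.683).

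These 3 transcripts varied from library to library together with markers of several other cell types. The r between log2 CPM and the summed microglia and macrophage markers was taken over the 22 libraries with group means removed. It was 0.885 for Ccl4, 0.857 for Ccl3 and 0.759 for Ccl2. For the mostly sparse monocyte, neutrophil and lymphocyte markers it was 0.836, 0.816 and 0.785, and for the astrocyte markers -0.615, -0.624 and -0.548. In the former list Ptprc had by far the highest level, with a median of 6.96 CPM and a maximum of 49.2 CPM. The next median was 1.30 CPM, of Nkg7. What the markers other than Ptprc add to this r was not tested. With the oligodendrocyte markers the r was 0.656, 0.58 and 0.775, so that Ccl2 moved as closely with these as with the microglia markers. Without replicate 7 the r with the microglia markers was 0.804 for Ccl4, 0.752 for Ccl3 and 0.662 for Ccl2. In the same order it was then 0.69, 0.631 and 0.708 for the monocyte, neutrophil and lymphocyte markers. For the astrocyte markers it was -0.661, -0.704 and -0.529, and for the oligodendrocyte markers 0.614, 0.505 and 0.745. Of the other members, Nfkb2 (0.605) and Nfkbia (0.518) had the highest r with the microglia markers, and Cxcl10 (0.176) and Rela (0.246) the lowest. This order depended on replicate 7. Without that replicate Cxcl12 had the highest r of these members (0.794, against 0.404 with it). Nfkb2 (0.391) and Nfkbia (0.369) followed, and Relb had the lowest (0.0707). Libraries share depth and dissection, so these are descriptions, and the part of these cell types in the chemokine values was not tested. In replicate 7 the summed microglia and macrophage markers were 8563 CPM in the ONH and 9714 CPM in the ONP. The next highest 30 day libraries had 2959 and 6704 CPM.

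**Figure D4:**
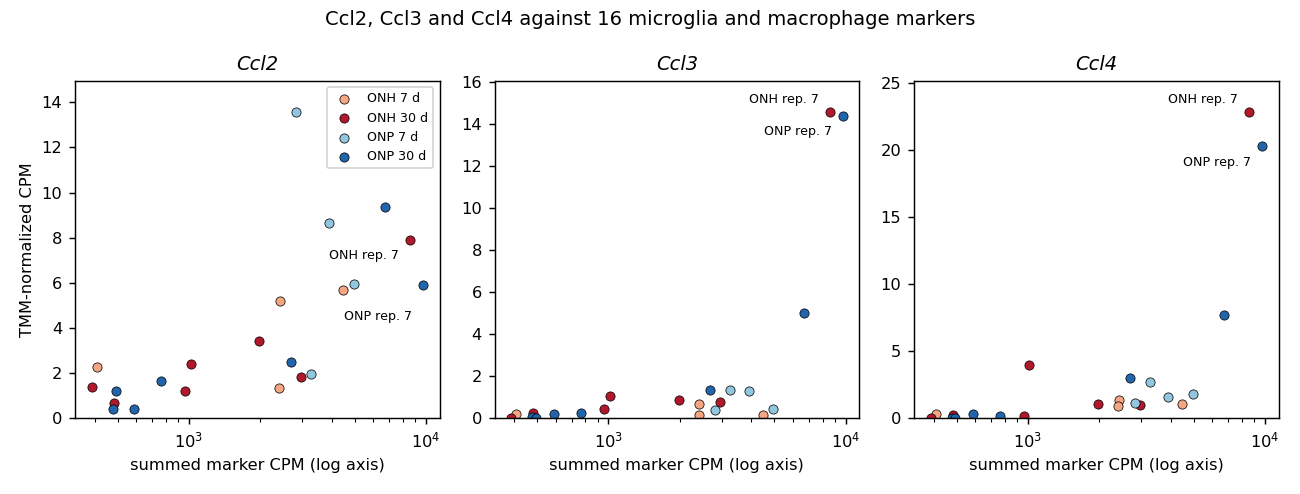
Ccl2, Ccl3 and Ccl4 (y axis, TMM-normalized CPM, linear from 0) against the summed CPM of 16 microglia and macrophage markers (x axis, log scale) in the 22 libraries, coloured by group. Replicate 7 at 30 days is at the upper right for Ccl3 and Ccl4 in both regions, with 14.6 and 14.4 CPM of Ccl3.

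Of the receptors of these chemokines, Ccr1 fell in the ONP from 8.78 ± 5.81 (SD, n = 4) CPM at 7 days to 0.945 ± 0.866 (SD, n = 7) CPM at 30 days (log2FC -3.24 ± 0.68 SE, adjusted p = 0.00835). In the ONH the means were 4.25 and 0.712 CPM, and the difference was not called (log2FC -2.55 ± 0.96 SE, adjusted p = 0.280). The 2 changes of Ccr1 were not shown to differ (adjusted p = 0.888). Ccr2 was at means of 0.125 to 1.07 CPM and was not called where it was tested. Among all 21 chemokine receptors in the table, those called besides Ccr1 and Cxcr4 were Ackr1 (log2FC -2.99, lower in the ONP at 30 than at 7 days) and Ackr4 (log2FC 2.01, higher in the ONH at 30 days). In each of these 2 comparisons 2 of 11 receptors tested were called, against 17% and 41.8% of all genes.

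Of the other chemokine ligands, between 13 and 18 of 30 passed the filter on low counts in a pairwise comparison, and none was called in the ONH over time. Ccl27a was higher at 30 than at 7 days in the ONP (log2FC 1.15 ± 0.27 SE, adjusted p = 0.0145), and higher in the ONH than in the ONP at 7 days (1.84) and at 30 days (1.31), but this gene has near-identical copies and its counts are uncertain. At 30 days Cxcl5, a neutrophil attractant, was at 1.60 CPM in the ONH and 0.162 CPM in the ONP (log2FC 3.33 ± 0.52 SE, adjusted p = 0.000152). Ccl5 was also higher in the ONH (log2FC 1.39 ± 0.50 SE, adjusted p = 0.0361). Cx3cl1, which signals to microglia, was lower in the ONH, at 25.7 against 48.8 CPM (log2FC -0.88 ± 0.24 SE, adjusted p = 0.00716). For all genes the share called was 17% in the ONP over time, 41.8% between the regions at 30 days and 13.2% at 7 days.

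Of 29 further subunits, inhibitors, adaptors and kinases of the NF-kappaB pathway tested, none was called in the ONH over time and 2 were lower in the ONP at 30 days, Nfkbiz (log2FC -1.49 ± 0.42 SE, adjusted p = 0.0293) and Irak4 (-0.54 ± 0.14 SE, adjusted p = 0.0216). Nfkbiz encodes a nuclear IkappaB protein and stood at 3.05 CPM at 7 days and 1.11 CPM at 30 days, with no overlap. In the ONH its means were 5.55 and 1.4 CPM, which were not called as different (log2FC -1.98 ± 0.53 SE, adjusted p = 0.189). Between the regions at 30 days 1 was higher in the ONH, Myd88 (log2FC 0.39), and 6 were lower, namely Traf6 (-0.78), Map3k7 (-0.63), Irak1 (-0.54), Cyld (-0.47), Rnf31 (-0.42) and Tab1 (-0.30). At 7 days Traf6 (-0.73) and Tab2 (-0.69) were lower in the ONH. For all genes the share called was 17% in the ONP over time, 41.8% between the regions at 30 days and 13.2% at 7 days. Traf6, Map3k7, Irak1, Tab1 and Tab2 carry signals from Toll-like and interleukin-1 receptors to the IkappaB kinase, while Cyld restrains them. Tnfaip3, an inhibitor and known target of the pathway, had means of 3.51 to 6.70 CPM and was not called in any comparison, nor was Rel (3.37 to 5.51 CPM).

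Among receptors and cytokines that activate NF-kappaB, Il1rap, the co-receptor for interleukin-1, was lower in the ONH at both days. Its means were 20.1 and 64.0 CPM in the ONH and ONP at 30 days (log2FC -1.63 ± 0.24 SE, adjusted p = 8.43e-05), and 24.2 and 107 CPM at 7 days (-2.13 ± 0.24 SE, adjusted p = 0.000368). In the ONP Il1rap fell from 7 to 30 days (log2FC -0.78 ± 0.22 SE, adjusted p = 0.0285). Tnfrsf12a, the receptor for the cytokine TWEAK, was higher in the ONH at 30 days (1.08 ± 0.21 SE, adjusted p = 0.000677) and at 7 days (1.26 ± 0.30 SE, adjusted p = 0.0197). Tlr3 was lower in the ONH at 30 days (log2FC -0.69). The rest of the 14 to 17 tested in a pairwise comparison were not called. For all genes the share called was 17% in the ONP over time, 41.8% between the regions at 30 days and 13.2% at 7 days.

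Known NF-kappaB target genes outside the 10 members did not move as a block. In the ONP from 7 to 30 days, 3 of 16 tested rose (Traf1 by 0.80, Gadd45b by 0.72 and Cflar by 0.38 on the log2 scale) and 3 fell (Lcn2 with a log2FC of -1.67, Ptgs2 of -1.47 and Vcam1 of -0.81). Their median was -0.21. At 30 days 3 of 15 were higher in the ONH (Ier3 at 1.82, Cflar at 0.60 and Sod2 at 0.45) and 2 lower (Csf1 at -1.21 and Traf1 at -0.94). Ier3 was at 32.7 CPM in the ONH and 9.53 CPM in the ONP, and Csf1, a growth factor for microglia, at 50.1 and 119 CPM. At 7 days Ier3 (1.66) was again higher and Csf1 (-1.25) lower in the ONH. Of the immediate early genes, which respond quickly to many stimuli, 4 of 11 fell in the ONP over time, namely Dusp1 (log2FC -1.11), Nr4a1 (-0.74), Jun (-0.64) and Btg2 (-0.49). Their median over the 11 was -0.34 there. In the ONH none was called, but 11 of 11 had a negative log2FC, with a median of -0.65, and a difference between the regions in the time change was called for none of 12. Between the regions at 30 days Ier2 (1.19), Dusp1 (1.13), Btg2 (0.93) and Jun (0.47) were higher in the ONH and Nr4a1 (-0.72) was lower, and at 7 days Ier2 (1.58) and Dusp1 (1.17) were higher. Beside both lists, the share of all genes called was 17% in the ONP over time, 41.8% between regions at 30 days and 13.2% at 7 days.

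Within groups, the members did not vary as a single set. With group means removed, Ccl3 and Ccl4 had the highest r of the 45 pairs of members over the 22 libraries (0.943), followed by Ccl2 with Ccl4 (0.725), Nfkb2 with Relb (0.699) and Ccl2 with Ccl3 (0.644). This order depended on replicate 7. Without it the r was 0.891 for Ccl3 with Ccl4, 0.609 for Ccl2 with Ccl4, 0.589 for Nfkb2 with Relb and 0.474 for Ccl2 with Ccl3. Cxcl12 with Nfkb2 then went from 0.364 to 0.714, and Cxcl12 with Ccl4 from 0.226 to 0.617. Nfkbia had an r of 0.542 with Nfkb1, 0.398 with Cxcl10 and -0.0363 with Rela. The lowest r over the 22 libraries was -0.253, between Cxcl12 and Nfkb1, and without replicate 7 it was -0.296, between Nfkb1 and Relb. Both tissues of 1 pool enter these values, so the 22 points are not independent.

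The genes most like each member were sought by the same r over all 22 libraries among 14232 genes with a mean of at least 1 CPM. For Ccl3 these were Ccl4, H2-Q7 (0.923) and Cyba (0.920), and for Ccl4 they were Ccl3, Plek (0.920) and Adap2 (0.919). Ccl2 was followed by Fyb (0.856), Pik3cg (0.837) and Cdk18 (0.835). For Cxcl10 they were H2-T22 (0.883), Nmi (0.781) and Cmc2 (0.774), and for Cxcl12 they were Lsr (0.895), Col1a1 (0.889) and Bgn (0.872). Nfkbia was closest to Fastkd3 (0.812), Trim30a (0.765) and Rnaset2a (0.750). For the subunits the closest were Cdyl (0.83) for Nfkb1, Hnrnpu (0.83) for Nfkb2, Usp25 (0.876) for Rela and Pimreg (0.815) for Relb.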

How the data were processed

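RNA bound to HA-tagged ribosomes was sequenced from polyA-selected libraries made with a kit that does not mark strand. By the methods of the study library preparation and sequencing were done together for all samples. Per the labels and methods, the authors aligned reads with STAR 2.6.1d to mm10, estimated counts per gene with Salmon 0.14.2 and an Ensembl annotation, and used DESeq2 1.34.0 in R 4.1.0. The deposited expected counts were whole numbers, and no further rounding was needed. A deposited table of variance-stabilized values was not used. Libraries held 16292489 to 33307092 counts, so 3 counts corresponded to 0.0901 to 0.184 CPM. This floor covers counting error only.

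Counts were analysed in R 4.3.3 with edgeR 4.0.16 (filterByExpr with a minimum count of 10, TMM, glmQLFit and glmQLFTest, Benjamini-Hochberg adjustment over all genes tested), separately for each pair of groups, and over all 22 libraries for the difference of the time changes. The SE was the absolute log2FC divided by the square root of the F statistic, and the 95% intervals derived from it are approximate. Ccl3 at 7 days, which was below the filter, was tested by exact permutation of log2 CPM with a prior count of 2. The scripts were tested on simulated data. Exon lengths came from GENCODE M21 on GRCm38, and upstream sequences from RefSeq.

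The members and the lists of genes were chosen with earlier results of these data known. All members were named. From the other lists, the genes called in a comparison were named, at most 8 per list and comparison in order of the absolute log2FC, as were Tnfaip3, Rel and the receptors of the member chemokines. Some genes that this rule names are not reported here. Alternatives were DESeq2 1.42.0, RLE size factors, library size only, no filter, a stricter filter, a single fit of all groups, the 30 day pairs as blocks, and each library left out in turn. Leaving out replicate 7 of both regions, also for mean levels and correlations, was added after seeing the data. Both regions were taken from the same mice by the methods of the study. That equal numbers at 30 days mark the same mice is not stated there and was assumed. Over 10000 genes the deviations of same-numbered libraries correlated at 0.106 to 0.537, against a median of -0.1 for other pairs, and 3 of 7 ONH libraries correlated best with their own number.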

Additional observations from a re-analysis of the deposited data

Results flagged for a closer look

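In 6 of the 40 groups of libraries checked (10 transcripts in 4 groups), 1 library lay far from the others relative to the range of its group. Chance alone would give this in about 1 of 20 groups if values were normally distributed. CPM of low transcripts are skewed, and the groups are not independent, so 6 of 40 cannot be set against that rate. The library was 30 day replicate 7 in 5 of these 6. In the ONH it held 7.91 CPM of Ccl2 (next highest 3.42), 14.6 CPM of Ccl3 (next 1.08) and 22.9 CPM of Ccl4 (next 3.96). In the ONP it held 14.4 CPM of Ccl3 (next 5.002) and 20.3 CPM of Ccl4 (next 7.68). The ONH library of this replicate also had the highest Gh (89.5 CPM) and Prl (86.2 CPM) of all libraries. The remaining case was Ccl3 in ONH library 5 at 7 days, at 0.657 CPM (next 0.182), which was 12 counts.

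The change in Nfkbia from 7 to 30 days differed between the regions, with a log2 difference of -1.14 (ONP minus ONH, edgeR adjusted p = 0.0409). This call was close to the threshold and was lost in 15 of 22 fits that left out a single library.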

How the results depend on the processing

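For the members, 298 of the log2FC values recomputed under other settings kept their direction and side of the threshold, 7 lost the call and 6 changed sign. With single libraries left out 595 kept both, 31 lost the call, 1 gained it and 25 changed sign. The cause of these changes was not tested.

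In the ONH over time the number of all genes called was 446 with DESeq2, 2 without a filter, 292 in a single fit of all groups, and 0 to 167 with single libraries left out (167 without library 5 at 7 days). In the ONP over time 1 member was called with library size only or in the single fit, and 1 to 3 with single libraries left out (3 without replicate 7). All genes called there were 1189 in the single fit and 1439 (without library 6 at 7 days) to 3214 with libraries left out. At 7 days they were 3204 with DESeq2, 3785 in the single fit and 1102 (without ONP library 6) to 2379 with libraries left out. For the difference of the time changes they were 407 with DESeq2, 50 without a filter, 58 without both replicate 7 libraries and 22 (without ONP library 1 at 7 days) to 318 (without ONH library 5 at 7 days) with libraries left out. There 0 members were called with RLE, library size only, no filter or without both replicate 7 libraries, and 0 to 1 with libraries left out.

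Changes of sign were near 0 or in Ccl2, Ccl3 and Ccl4. With library size only, Relb was at 0.0129 in the ONP over time and 0.0151 between regions at 7 days, and Nfkb2 at 0.0345 at 7 days and 0.0110 in the difference of the time changes. Between the regions at 30 days Nfkb2 was at -0.0022 without a filter and Ccl2 at 0.21 with the replicate block. With libraries left out, log2FC between the regions at 30 days ranged from -0.73 to 0.44 for Ccl2, -2.38 to 1.22 for Ccl3, -2.03 to 1.24 for Ccl4 and -0.082 to 0.26 for Nfkb2. At 7 days Nfkb2 ranged from -0.23 to 0.0066, and Rela in the ONP over time from -0.012 to 0.17. For the difference of the time changes the ranges were -0.34 to 0.012 (Nfkb2), -2.70 to 0.85 (Ccl3), -2.23 to 0.97 (Ccl4) and -0.029 to 0.18 (Relb).

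With the replicate block between the regions at 30 days 5 members and 6717 genes were called, and it changed no other call of a member. No paired analysis was possible for 30 vs 7 days or between the regions at 7 days, because the days hold different mice and the 7 day columns could be assigned to a region and day only. Ccl3 and Ccl4 lie near the counting floor in most libraries, which limits what their values can show.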
